A study of Homo sapiens with 6 samples.

Results

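The 37 genes described here are targets of the cellular response to low oxygen and genes of glycolysis, the pathway that splits glucose to pyruvate and lactate. They were taken by symbol, with older names counted, so that probes listed as PKM2 and AK3L1 stand for PKM and AK4. The name AK3L1 has been used for both AK3 and AK4, AK3 has probes under its own name on this array, and AK4 rests on the 1 probe listed as AK3L1. Probes were found for 36 of the 37, among 17446 genes on the array, and all 36 lay above background on all 6 arrays. PGAM1, a mutase of lower glycolysis, was absent from the named probes. The 36 genes carried 44 probes, and 8 genes had 2 probes each.

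The arrays come from kidney organoids, which are small kidney-like tissues grown in culture, made from H9, an established line of human embryonic stem cells. A PKHD1-/- line (clone C51) was set beside a PKHD1+/- line (clone C9), so the control also carries a mutant copy of PKHD1, the gene of autosomal recessive polycystic kidney disease. Each genotype was grown under flow, with forskolin and in static culture, and total RNA was taken at day 35. Flow organoids were moved at day 14 onto a layer of gelatin and fibrin matrix, and medium passed over them at 4.27 ml/min from day 15. Forskolin organoids were given forskolin, which raises cyclic AMP, at 20 µM starting on day 14. Whether they lay on the matrix is not given. Static organoids lay on the matrix with no flow. Each of the 6 combinations is 1 array and each genotype is 1 clone, so there are no replicates, and clone and genotype cannot be told apart.

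When oxygen is plentiful, prolyl hydroxylases such as EGLN1 and EGLN3 mark the alpha subunit of hypoxia-inducible factor (HIF) for destruction through VHL. When oxygen is short, HIF persists, pairs with ARNT and switches on genes for glucose uptake, glycolysis, lactate export, blood vessel growth, mitophagy and collagen modification. The medulla of the kidney works at low oxygen, organoids in culture lack a perfused blood supply, and tubule segments differ in how far they rely on glycolysis.

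HIF binds DNA at sites whose core reads ACGTG or GCGTG. The promoters below are shown because these genes had the largest differences between the genotypes in their response to flow. BNIP3 is the exception, chosen after its matches were seen, as a window with several matches close together. NDRG1 also ranks among the largest differences, and no window was at hand for it. Where a gene had several windows, the most upstream is shown. Each sequence runs 5′ to 3′ on the gene's strand, from 250 bases before to 50 bases after the annotated start, in RefSeq's GRCh38.p14, and capitals mark ACGTG or GCGTG on either strand.
BSG, chr19:571033-571332, + strand: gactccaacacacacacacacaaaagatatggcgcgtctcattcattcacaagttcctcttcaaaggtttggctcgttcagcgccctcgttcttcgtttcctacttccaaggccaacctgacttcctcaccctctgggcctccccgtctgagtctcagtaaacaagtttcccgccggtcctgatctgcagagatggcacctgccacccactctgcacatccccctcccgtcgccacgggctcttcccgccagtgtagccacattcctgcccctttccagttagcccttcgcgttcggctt
PKM, chr15:72231141-72231440, - strand: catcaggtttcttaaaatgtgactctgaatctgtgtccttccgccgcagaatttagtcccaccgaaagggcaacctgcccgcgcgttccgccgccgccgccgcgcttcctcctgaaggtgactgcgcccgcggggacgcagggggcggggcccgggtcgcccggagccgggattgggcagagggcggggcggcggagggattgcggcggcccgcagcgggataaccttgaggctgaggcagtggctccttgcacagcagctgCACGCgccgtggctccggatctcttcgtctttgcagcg
AK4, chr1:65147302-65147601, + strand: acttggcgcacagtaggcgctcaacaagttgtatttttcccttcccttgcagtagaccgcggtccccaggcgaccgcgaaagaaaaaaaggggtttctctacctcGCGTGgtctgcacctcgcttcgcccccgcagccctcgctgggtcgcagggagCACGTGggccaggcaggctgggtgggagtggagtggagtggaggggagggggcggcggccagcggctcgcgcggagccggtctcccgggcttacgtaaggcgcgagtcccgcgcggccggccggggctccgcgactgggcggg
SLC2A1, chr1:42958819-42959118, - strand: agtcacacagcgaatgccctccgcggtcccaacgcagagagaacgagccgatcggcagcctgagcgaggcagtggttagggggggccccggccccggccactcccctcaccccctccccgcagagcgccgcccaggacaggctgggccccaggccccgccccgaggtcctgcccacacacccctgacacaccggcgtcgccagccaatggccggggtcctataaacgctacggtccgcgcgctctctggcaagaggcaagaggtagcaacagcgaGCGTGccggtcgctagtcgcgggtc
KDM3A, chr2:86441121-86441420, + strand: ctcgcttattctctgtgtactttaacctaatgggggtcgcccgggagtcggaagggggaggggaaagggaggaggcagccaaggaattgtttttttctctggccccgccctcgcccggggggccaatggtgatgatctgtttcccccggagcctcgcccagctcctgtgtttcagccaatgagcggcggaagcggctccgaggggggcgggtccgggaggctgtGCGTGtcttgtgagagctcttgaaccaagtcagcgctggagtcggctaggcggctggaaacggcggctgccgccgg
BNIP3, chr10:131981874-131982173, - strand: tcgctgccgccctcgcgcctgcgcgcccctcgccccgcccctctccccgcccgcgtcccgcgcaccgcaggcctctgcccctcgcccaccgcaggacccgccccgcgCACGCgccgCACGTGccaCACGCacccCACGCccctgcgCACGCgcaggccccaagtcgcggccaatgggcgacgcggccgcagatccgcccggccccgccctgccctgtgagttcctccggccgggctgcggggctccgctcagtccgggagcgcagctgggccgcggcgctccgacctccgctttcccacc

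Of the 37 genes, 32 had a window of this kind, with 65 windows in all, since a gene can have several starts. SLC2A3, SLC16A1, VEGFA, BNIP3L and NDRG1 had none. ACGTG or GCGTG on either strand stood in 44 of the 65 windows (67.7%), against 17012 of 35116 windows over all genes (48.4%). By role, 12 of 14 windows of the hypoxia targets outside glycolysis held a match (85.7%), against 22 of 36 windows of the glycolytic enzymes (61.1%). These shares count windows and not genes, so genes with several starts weigh more. Windows of a gene can also overlap: the match at -26 in KDM3A is counted again at -116 in its second window. BNIP3 held 6 matches between positions -143 and -104 from its start, counted on the gene's strand. A window of HK2 and a window of LDHA also held 6. The AK4 window shown held GCGTG at -145 and ACGTG at -93 and -92, and further AK4 windows held 1 to 3 matches each. KDM3A held 1 match at -26, SLC2A1 held 1 at 26 and PKM held 1 at 13. The BSG window shown held none, and a second BSG window, chr19:572346-572645, held 6. The palindrome CACGTG, which holds ACGTG on both strands, accounts for the paired matches in AK4 and BNIP3 and stood in 15.4% of the windows of these genes and 7.26% of all windows. A match is a run of letters, and no binding was measured.

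Values are normalized log2 intensities, on which a difference of 1 is a 2-fold change, and levels are compared between arrays and not between genes. A flow response is the flow array minus the static array of the same genotype, so it rests on 1 array against 1 and has no test of its own. The median probe lay 58.3 intensity units above the blank spots on the PKHD1+/- flow array and 33.6 to 39.7 units above on the other flow and static arrays. On the forskolin arrays it lay 16.5 to 21.2 units above. The PKHD1+/- flow array also had the lowest mean of the blank spots, at 32.4, and the most spots marked as not good, at 136. Every flow response in PKHD1+/- rests on that array. The PKHD1-/- flow array correlated over genes at 0.977 with the PKHD1+/- static array and at 0.971 with the static array of its own genotype. The PKHD1+/- flow array likewise correlated at 0.981 with the PKHD1-/- static array and at 0.974 with its own. Over the 36 genes these correlations were 0.971 and 0.929 for PKHD1-/- flow, and 0.986 and 0.949 for PKHD1+/- flow. Both flow arrays were thus closer to the static array of the other genotype than to their own, and whether the genotype labels of the flow or of the static arrays are exchanged was not tested. Set against the static array of the other genotype, a comparison added after seeing the data, the median of the 36 genes was 0.21 on the PKHD1-/- flow array and -0.25 on the PKHD1+/- flow array, against 0.19 and -0.17 with the static array of the same genotype. SLC2A1 was at 0.59 and -1.21 in that comparison, AK4 at -0.06 and 0.21, BSG at -0.64 and 0.34, and PKM at -0.51 and -0.04. NDRG1 was at 1.04 and 0.20. The opposite responses of AK4, PKM and NDRG1 given below thus depend on which static array is used. BSG kept its opposite signs, at a smaller size. With the labels of the flow arrays exchanged these values would belong to the other genotype, and the contrast between genotypes would turn round. The level of PKHD1 was 7.37 in PKHD1-/- flow, 7.40 in PKHD1+/- flow, 7.33 and 7.24 with forskolin, and 7.35 and 7.49 in static culture, and the position of its 2 probes relative to the mutation is not given, so these levels check no label. Kidney epithelial markers were present (EPCAM from 8.94 to 10.28), and so were markers of skeletal muscle.

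The first question is how the genes responded to flow in each genotype. In PKHD1-/- organoids the glucose transporter SLC2A1, the adenylate kinase AK4, the histone demethylase KDM3A and the stress gene NDRG1 were higher under flow than in static culture, by 0.76 to 1.46. In PKHD1+/- organoids the same 4 genes were lower under flow, by 0.22 to 1.39. The glycolytic enzyme PKM and the lactate transporter partner BSG ran the other way, with lower values under flow in PKHD1-/- and higher values in PKHD1+/-. Of the 36 genes, 10 had a flow response of at least 0.5 in PKHD1-/-, and 4.26% of all 16364 genes tested did. In PKHD1+/-, 10 of the 36 had a response of -0.5 or lower, and 3.52% of all genes did. The opposite counts were 4 genes at -0.5 or lower in PKHD1-/- (background 4.5%) and 3 at 0.5 or higher in PKHD1+/- (background 4.49%).

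The median response of the 36 genes was 0.19 in PKHD1-/- and -0.17 in PKHD1+/-, where all genes tested had medians of 0.00 and -0.01. The response was above 0 in PKHD1-/- and below 0 in PKHD1+/- for 18 of the 36, against 29% of all genes, and the reverse for 8, against 25.7%. It was above 0 in both genotypes for 2 genes (background 21.1%) and below 0 in both for 8 (background 24.2%). A response of at least 0.5 in PKHD1-/- together with -0.5 or lower in PKHD1+/- was seen in SLC2A1, AK4, KDM3A, ADM and ALDOC, 5 of the 36, against 0.293% of all genes. Across the 36 genes the responses of the 2 genotypes had a Pearson correlation of -0.675, and across all genes tested it was 0.05. Both are descriptions over genes that share the same 4 arrays.

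**Figure D1:**
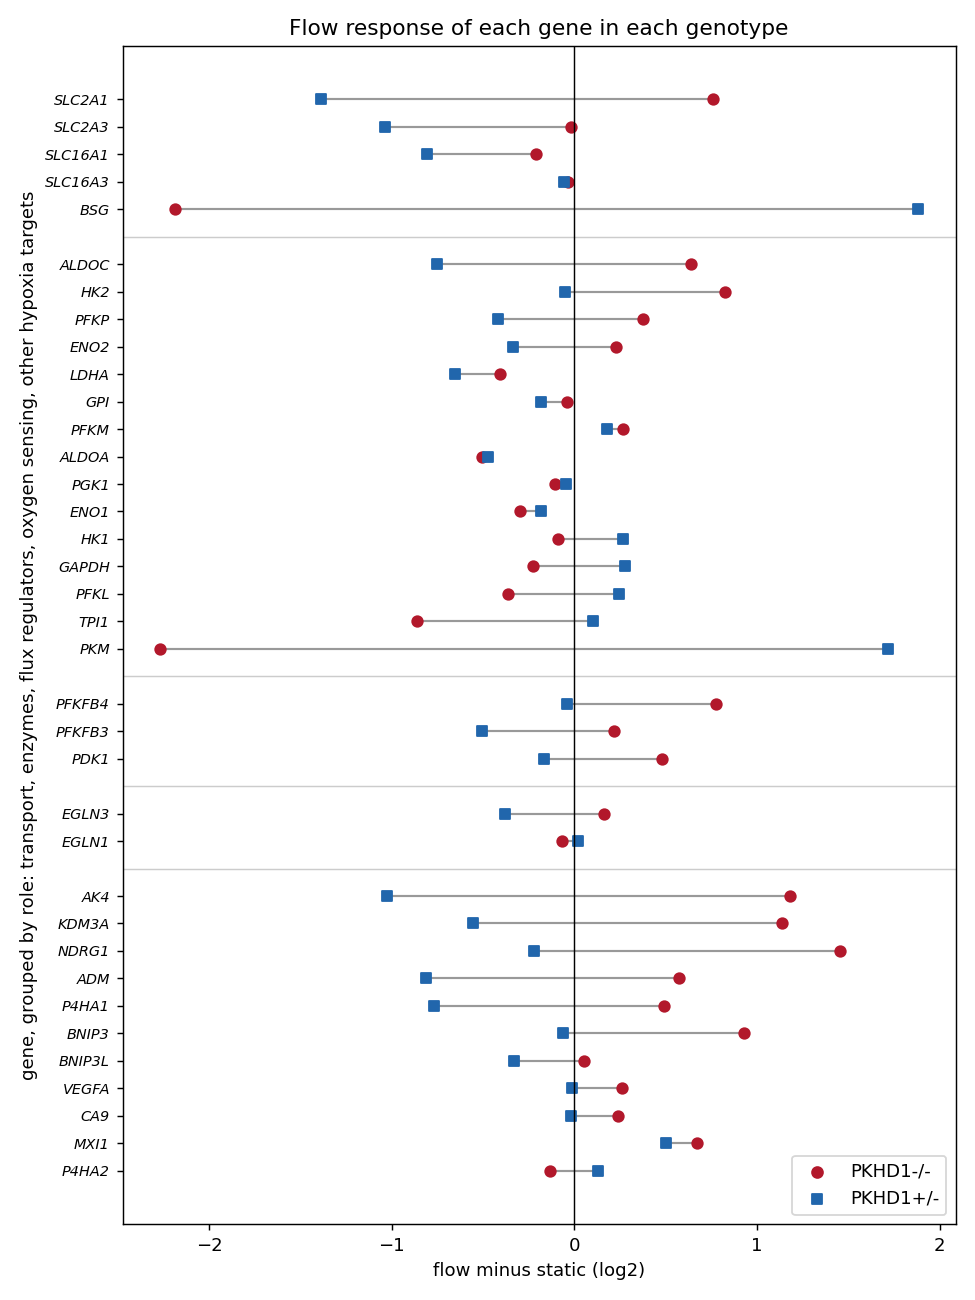
Flow response of each of the 36 genes, as the flow array minus the static array on the log2 scale, with a red circle for PKHD1-/- and a blue square for PKHD1+/- and a grey line joining the 2 values of a gene. Genes are grouped by role, and 18 of the 36 have the circle right of 0 and the square left of it, while PKM and BSG span the widest gaps in the opposite order.

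Among genes of glucose and lactate transport, SLC2A1, the main carrier of glucose into most cells, read 11.89 under flow and 11.13 in static culture in PKHD1-/-. In PKHD1+/- it read 9.91 under flow and 11.30 in static culture, the lowest of the 6 arrays against levels of 12.25 and 12.59 with forskolin. The flow responses of 0.76 and -1.39 differed by 2.15, the 4th highest difference of 16364 genes. SLC2A3, a second glucose carrier, read 8.16 under flow and 8.18 in static culture in PKHD1-/-, and 7.47 and 8.50 in PKHD1+/-. Its responses of -0.02 and -1.04 left only the PKHD1+/- flow array low. SLC16A1, which exchanges lactate with the surroundings, read 8.90 under flow and 9.11 in static culture in PKHD1-/-, and 8.72 and 9.52 in PKHD1+/-, so it was lower under flow in both. SLC16A3, the lactate exporter of glycolytic cells, moved by -0.03 and -0.06.

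BSG encodes basigin, the chaperone that carries SLC16A1 and SLC16A3 to the cell surface. It read 8.0 under flow and 10.19 in static culture in PKHD1-/-, and 10.53 under flow and 8.64 in static culture in PKHD1+/-. Its responses of -2.19 and 1.88 differed by -4.07, the 4th lowest difference of all genes tested. Its lowest and highest arrays were thus the 2 flow arrays, and its forskolin levels of 9.60 and 9.75 lay between them. Of the transporters it escorts, SLC16A1 had a difference of responses of 0.60 between the genotypes, opposite in sign to BSG. SLC16A3 had one of 0.02, which was -0.03 with 75th percentile scaling and -0.35 in the authors' value table.

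Of the 16 glycolytic enzymes listed, 15 were measured, and as a group they were spread around 0, with medians of -0.11 in PKHD1-/- and -0.05 in PKHD1+/-. ALDOC, the aldolase of brain that HIF also induces, read 9.02 under flow and 8.38 in static culture in PKHD1-/-, and 7.65 and 8.40 in PKHD1+/-. Both of its probes moved alike, by 0.78 and 0.50 in PKHD1-/- and by -0.66 and -0.84 in PKHD1+/-. HK2, the inducible hexokinase, read 7.20 under flow and 6.38 in static culture in PKHD1-/-, and 6.37 and 6.42 in PKHD1+/-. Only its PKHD1-/- flow value stood apart from those 4, and of its 2 probes the dimmer one lay near background and moved less, by 0.44 against 1.22. PFKP, the platelet form of phosphofructokinase, had responses of 0.38 and -0.42, and ENO2, the neuronal enolase, had 0.23 and -0.34.

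PKM, pyruvate kinase of muscle and most other tissues, read 7.42 under flow and 9.68 in static culture in PKHD1-/-, and 9.64 under flow and 7.93 in static culture in PKHD1+/-. The responses of -2.27 and 1.72 gave a difference of -3.98, the 6th lowest of all genes tested. Its 2 probes gave -1.58 and -2.95 in PKHD1-/-, and 1.40 and 2.03 in PKHD1+/-, so both carry the crossed pattern. TPI1, triosephosphate isomerase, was lower under flow by 0.86 in PKHD1-/- and moved by 0.10 in PKHD1+/-, and PFKL, GAPDH and HK1 also had a negative value in PKHD1-/- and a positive one in PKHD1+/-, each under 0.5 in size. GAPDH has a bright and a dim probe, which gave -0.24 and -0.22 in PKHD1-/- and 0.32 and 0.24 in PKHD1+/-.

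ALDOA, LDHA and ENO1, which with GAPDH have the brightest probes of the enzymes, were lower under flow in both genotypes. ALDOA, the muscle and general aldolase, read 12.71 under flow and 13.22 in static culture in PKHD1-/-, and 12.20 and 12.68 in PKHD1+/-. LDHA, the lactate dehydrogenase subunit that favours lactate, read 13.25 and 13.65 in PKHD1-/-, and 13.09 and 13.74 in PKHD1+/-. ENO1, the general enolase, read 14.14 and 14.44 in PKHD1-/-, and 14.18 and 14.36 in PKHD1+/-. The 3 were lower by 0.18 to 0.66, and PGK1 and GPI were lower in both genotypes by 0.04 to 0.18. The sizes for ALDOA, LDHA and ENO1 depended on the normalization. With 75th percentile scaling their responses were -0.08, -0.08 and -0.01 in PKHD1-/-, and -0.77, -1.12 and -0.70 in PKHD1+/-. GPI was at 0.09 in PKHD1-/- with that scaling. PFKM, the muscle phosphofructokinase, was the only enzyme above 0 in both, at 0.27 and 0.18.

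The 3 regulators of glycolytic flux shared the sign of SLC2A1. PFKFB4 and PFKFB3 make and break fructose 2,6-bisphosphate, the activator of phosphofructokinase, and PDK1 closes the entry of pyruvate into the mitochondrial cycle. PFKFB4 read 7.78 under flow and 7.01 in static culture in PKHD1-/-, and 6.73 and 6.78 in PKHD1+/-, a response of 0.78 against -0.04. PFKFB3 had responses of 0.22 and -0.50, and PDK1 of 0.48 and -0.17. The 2 PDK1 probes gave 0.50 and 0.45 in PKHD1-/- and -0.12 and -0.22 in PKHD1+/-, while a dim second probe of PFKFB3 hardly moved.

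Of the oxygen sensors, EGLN3, the hydroxylase that HIF itself induces, had flow responses of 0.17 in PKHD1-/- and -0.38 in PKHD1+/-, and EGLN1, the main hydroxylase of most tissues, had -0.07 and 0.02.

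The 11 hypoxia targets outside glycolysis mostly had positive responses in PKHD1-/- and negative ones in PKHD1+/-. In PKHD1-/- 10 of the 11 had a response above 0, with a median of 0.58, against 8195 of all 16364 genes tested. In PKHD1+/- 9 of the 11 had one below 0, with a median of -0.22, against 8700 of all genes tested. AK4, a mitochondrial adenylate kinase, read 8.79 under flow and 7.61 in static culture in PKHD1-/-, and 7.83 under flow and 8.85 in static culture in PKHD1+/-. Its difference of 2.20 was the 3rd highest of all genes tested, but its static arrays also differed by -1.24 between the genotypes, so much of that size lies in static culture. KDM3A, a demethylase of histone H3, read 10.61 under flow and 9.47 in static culture in PKHD1-/-, and 9.26 and 9.81 in PKHD1+/-, a difference of 1.69. NDRG1, a gene of stress and differentiation, read 9.03 and 7.57 in PKHD1-/-, and 7.78 and 7.99 in PKHD1+/-, a difference of 1.67. Its response of 1.46 was the highest of the 36 genes in PKHD1-/-.

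ADM, the vessel-relaxing peptide adrenomedullin, read 7.84 under flow and 7.27 in static culture in PKHD1-/-, and 6.58 and 7.39 in PKHD1+/-. P4HA1, a prolyl hydroxylase that stabilizes collagen, read 10.17 and 9.68 in PKHD1-/-, and 9.12 and 9.89 in PKHD1+/-. Their differences between genotypes were 1.39 and 1.26. BNIP3, a mitophagy receptor whose promoter held the 6 matches shown above, read 11.45 under flow and 10.52 in static culture in PKHD1-/-, and 10.36 and 10.42 in PKHD1+/-, so only the PKHD1-/- flow array stood apart among these 4. Its relative BNIP3L had responses of 0.05 and -0.33 as the mean of 2 probes. The brighter BNIP3L probe gave 0.16 and -0.66, and the dim one gave -0.05 and -0.01. VEGFA, the vascular growth factor, had 0.26 and -0.01, CA9, a carbonic anhydrase of hypoxic cells, had 0.24 and -0.02, and P4HA2, a second collagen hydroxylase, had -0.13 and 0.13.

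MXI1, an antagonist of MYC that HIF induces, was the 1 gene of the 36 with a response of at least 0.5 in both genotypes (background 1.08%). It read 8.15 under flow and 7.48 in static culture in PKHD1-/-, and 7.49 and 6.99 in PKHD1+/-. The flow term of the fit over all 6 arrays, which averages the 2 responses, was 0.59 ± 0.10 (limma's moderated SE, 2 pairs). It did not pass (limma adjusted p = 0.553), nor did the flow term of any other of the 36 genes. Over all 16364 genes tested limma called 0 (0%) for flow, and 971 had an unadjusted p under 0.05. MXI1 was the 1 gene of the 36 among the higher ones (background 3.25%), and none of the 36 was among the lower ones (background 2.68%). The median flow term of the 36 genes was -0.05, since opposite responses cancel in this average.

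**Figure D2:**
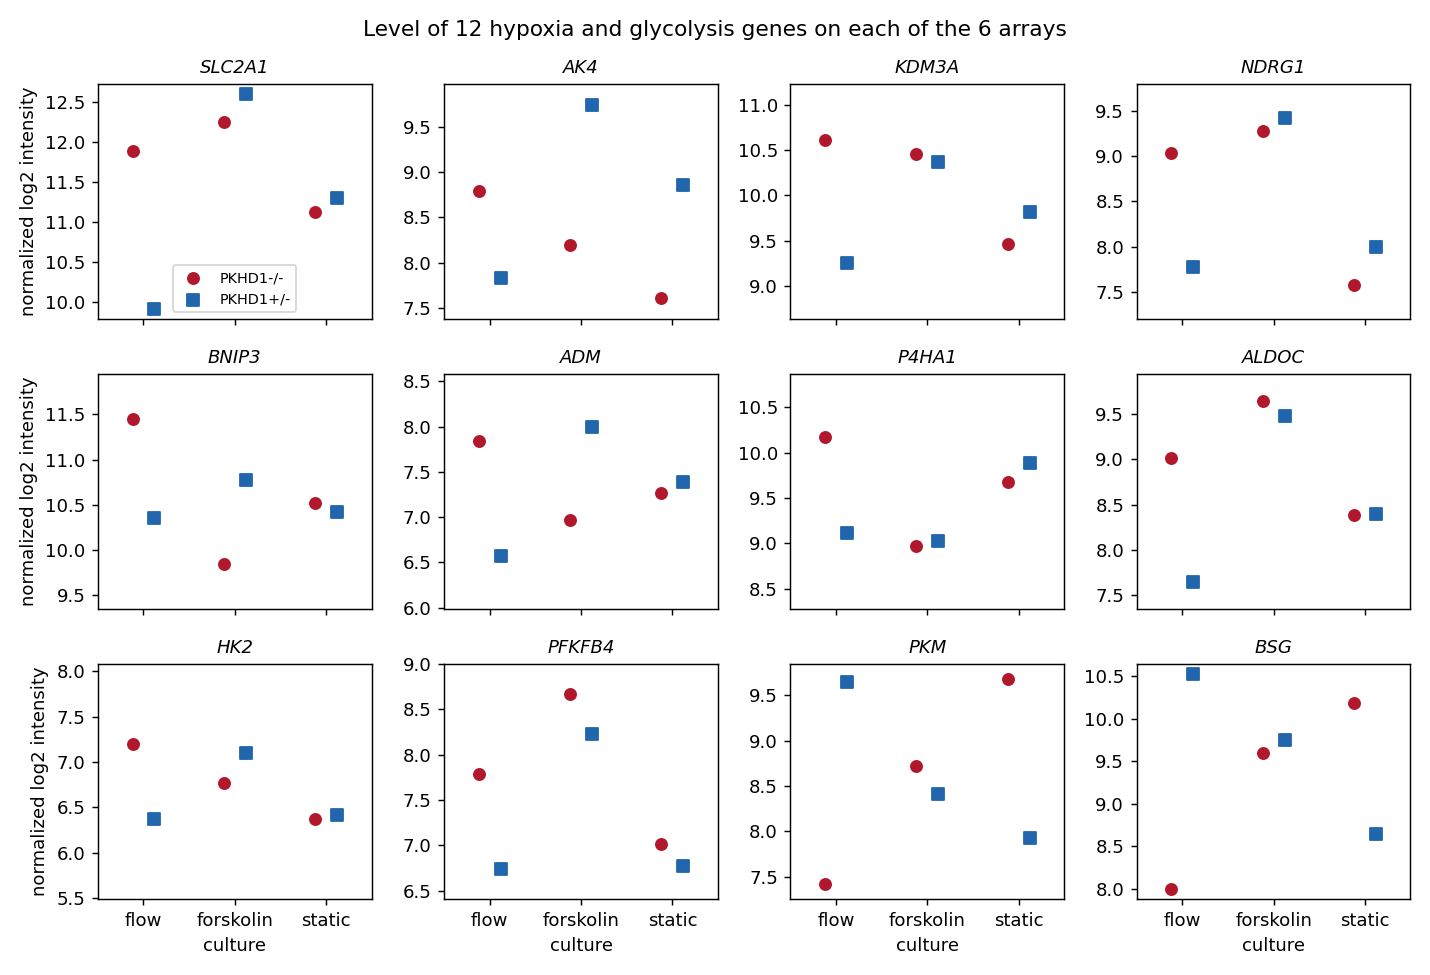
Normalized log2 intensity of 12 of the genes on each of the 6 arrays, 1 panel a gene with its own vertical range, red circles for PKHD1-/- and blue squares for PKHD1+/-, with flow, forskolin and static culture from left to right. In flow the circle lies above the square for SLC2A1 (11.89 against 9.91) and 9 other genes. It lies below the square for PKM (7.42 against 9.64) and BSG (8.0 against 10.53).

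The second question is whether the 2 flow responses differ. Of the 36 genes, 8 had a response at least 1 higher in PKHD1-/- than in PKHD1+/- (background 1.11%), namely AK4, SLC2A1, KDM3A, NDRG1, ADM, ALDOC, P4HA1 and SLC2A3. PKM and BSG had one at least 1 lower, 2 of 36 against 2.4% of all genes. P4HA1 and SLC2A3 lay just inside that size at 1.26 and 1.02, and BNIP3 and TPI1 just outside it at 0.99 and -0.96. The median difference was 0.33 over the 36 genes and 0.02 over all genes. A fit with its own term for flow in PKHD1-/- sets the genotype difference under flow against its mean over forskolin and static culture. It leaves 1 residual degree of freedom and fits both flow arrays exactly. Its SE and p-values thus rest on how the genotype difference varies between forskolin and static culture, and on limma's prior. They do not measure the spread of the flow arrays.

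In that fit SLC2A1 had a term of 2.23 ± 0.14 and AK4 one of 2.35 ± 0.19 (moderated SE). NDRG1 had 1.54 ± 0.18, P4HA1 1.19 ± 0.14, ALDOC 1.30 ± 0.14, PFKP 0.81 ± 0.11 and BNIP3 1.51 ± 0.55. BSG had -3.22 ± 0.90 and PKM -3.26 ± 0.77. No gene passed: limma called 0 of 16364, and the adjusted p was 0.485 for SLC2A1, AK4, BSG and PKM and 0.522 for BNIP3. At an unadjusted p under 0.05 there were 15 of the 36 genes with a positive term, against 5.21% of all genes, and 4 with a negative term (BSG, PKM, PFKL and GAPDH), against 5.07%. The 15 counted SLC2A1, SLC16A1, HK2, PFKP, ALDOC, all 3 flux regulators, EGLN3, AK4, KDM3A, NDRG1, ADM, P4HA1 and BNIP3L.

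**Figure D3:**
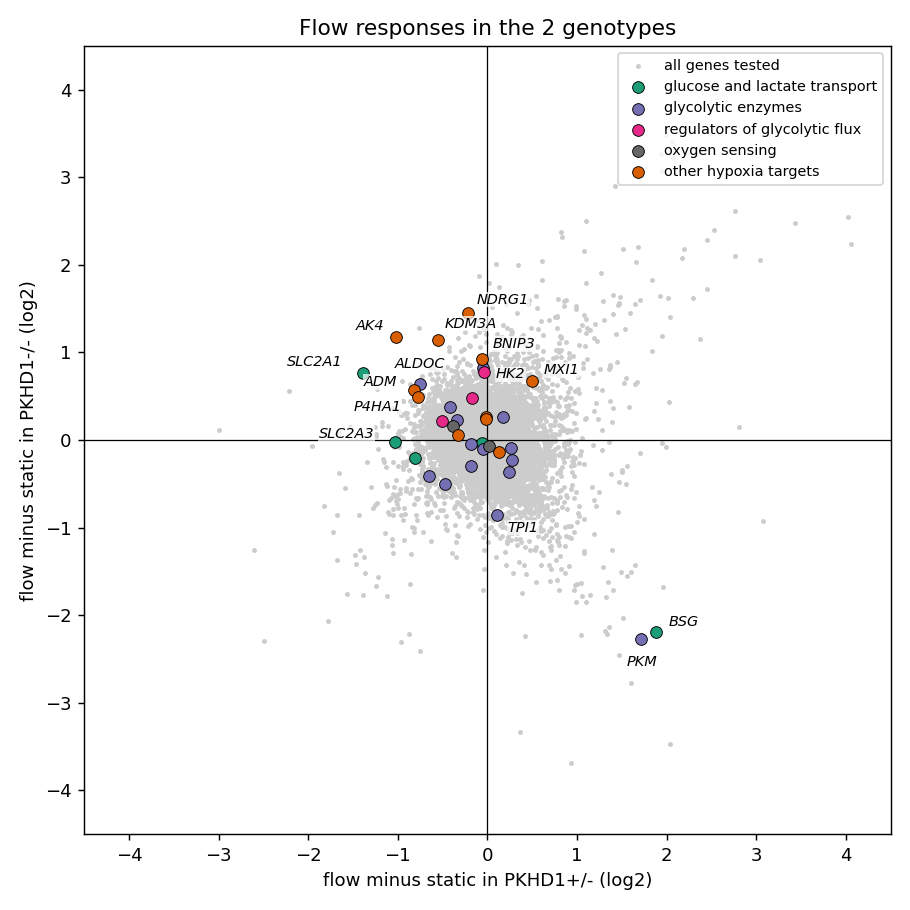
Flow response in PKHD1-/- (vertical, log2) against flow response in PKHD1+/- (horizontal, log2) for all 16364 genes tested in grey and the 36 genes coloured by role. SLC2A1 and 9 of the 11 other hypoxia targets lie in the upper left part, which holds 18 of the 36, and PKM and BSG lie far to the lower right.

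The same contrast can be read as genotype differences within each culture. Under flow 19 of the 36 genes were at least 0.5 higher in PKHD1-/- than in PKHD1+/-, against 2.81% of all genes, and 2 were at least 0.5 lower (background 4.1%), namely BSG and PKM. The median was 0.52, against 0.01 for all genes. All 11 hypoxia targets outside glycolysis were higher there, by 0.07 to 1.35, with KDM3A at the top, against 8836 of all 16364 genes tested. With forskolin no gene of the 36 was at least 0.5 higher (background 3.29%), 6 were at least 0.5 lower (background 4.36%), and the median was -0.13. The 6 were LDHA, AK4, ADM, BNIP3, ENO1 and ENO2. In static culture 5 were at least 0.5 higher (background 2.73%), namely BSG, PKM, ENO2, TPI1 and ALDOA, and AK4 was at least 0.5 lower (background 2.33%). The median was 0.07. The genotype difference was highest under flow of the 3 cultures for 25 of the 36, against 38.8% of all genes. These counts use the same flow and static arrays as the responses and add only the forskolin arrays to them.

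Across the 3 cultures 6 genes were higher in PKHD1-/- each time (background 11.7%) and none was lower each time (background 9.07%). MXI1 differed by 0.66 under flow, 0.34 with forskolin and 0.49 in static culture. PFKFB4 differed by 1.05, 0.45 and 0.23, GPI, the isomerase of upper glycolysis, by 0.60, 0.21 and 0.46, and PGK1, phosphoglycerate kinase, by 0.26, 0.20 and 0.32. None passed in the genotype term, where limma called 0 of 16364 genes (0%) and 528 had an unadjusted p under 0.05. The 36 genes gave 5 of the higher ones (background 1.92%) and none of the lower ones (background 1.3%). PFKFB4 stood at 0.58 ± 0.19 and MXI1 at 0.50 ± 0.08, both with limma adjusted p = 1.00.

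**Figure D4:**
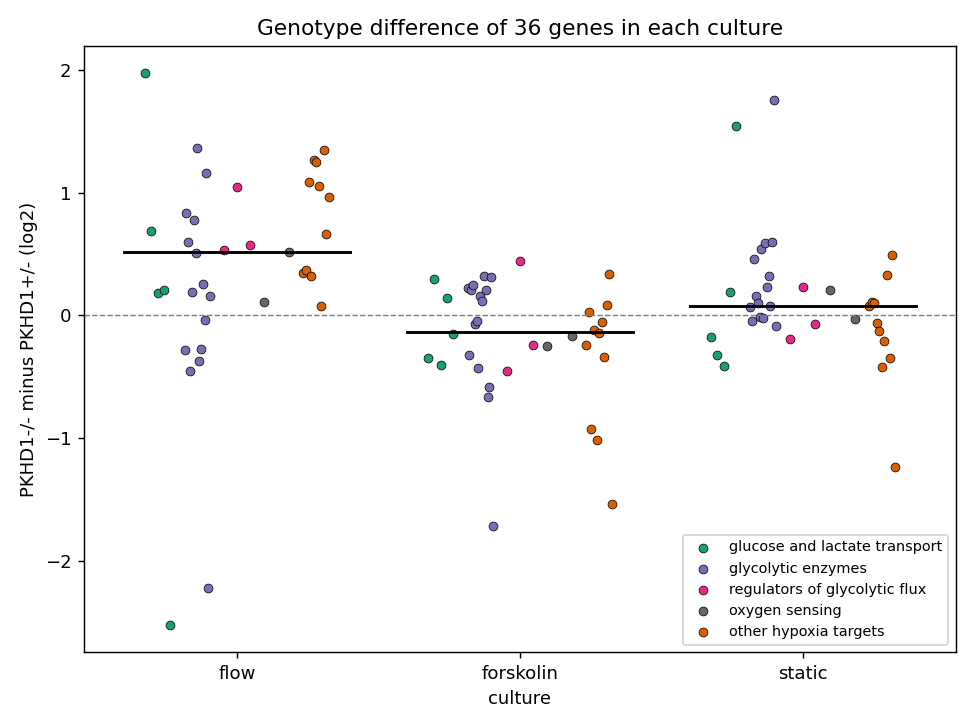
Genotype difference, PKHD1-/- minus PKHD1+/- on the log2 scale, of each of the 36 genes in flow, forskolin and static culture, coloured by role and spread sideways only to part the points. Black bars mark the medians of 0.52, -0.13 and 0.07.

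The forskolin cultures give a second setting in which these genes moved, though forskolin cannot be told apart from the scan date that its 2 arrays share and the other 4 do not, nor from a difference in the matrix, which is not stated for them. EGLN3 read 8.70 in PKHD1-/- and 8.86 in PKHD1+/- with forskolin, against 7.07 and 7.09 in static culture. NDRG1 read 9.27 and 9.42 with forskolin, against 7.57 and 7.99, and PFKFB4 read 8.67 and 8.23, against 7.01 and 6.78. CA9 read 8.17 and 8.15 with forskolin, against 7.01 and 6.91. These 4 genes were higher by 1.16 to 1.77 in both genotypes, and SLC2A1 was higher by 1.12 and 1.29.

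Lower values with forskolin were found for SLC16A1, at 7.80 and 8.20 against 9.11 and 9.52 in static culture, and for P4HA1, at 8.97 and 9.03 against 9.68 and 9.89. LDHA read 11.44 in PKHD1-/- and 13.16 in PKHD1+/- with forskolin, against 13.65 and 13.74 in static culture, so the 2 genotypes were lower by unequal amounts. BNIP3L was lower by 0.69 and 0.64 as the mean of its 2 probes. The brighter probe read 8.51 and 8.72 with forskolin, against 9.96 and 10.12 in static culture. The dim probe read 6.17 and 6.19, against 6.10 and 6.08. With forskolin 12 of the 36 genes were at least 0.5 higher in PKHD1-/- (background 8.41%) and 18 in PKHD1+/- (background 6.91%). At least 0.5 lower were 8 in PKHD1-/- (background 10.2%) and 4 in PKHD1+/- (background 8.85%). Hypoxia targets thus lay on both sides. Of the 36 genes, 21 were higher with forskolin in both genotypes, against 37% of all genes, and 7 were lower in both, against 35.1%.

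SLC16A3 was the 1 gene of the 36 that passed. It read 7.49 in PKHD1-/- and 7.35 in PKHD1+/- with forskolin, against 6.75 and 6.56 in static culture and 6.71 and 6.50 under flow. The forskolin arrays thus stood above the other 4 after normalization. Before it, the spot medians of its 1 probe were 108.3 and 123.3 with forskolin, 101.6 and 86.1 in static culture, and 108.9 and 97.3 under flow. SLC16A3 rose by 0.77 ± 0.06 (moderated SE, 2 pairs, limma adjusted p = 0.0484), and by 1.31 in the authors' value table. Its adjusted p ran from 0.0197 to 0.0517 over the other processing settings, above the threshold with no filter on dim genes and with the brightest probe of each gene, and it stayed above the threshold, at up to 0.314, with any single array left out. Limma called 169 of all genes for forskolin (1.03%), and called 0 when any single array was left out.

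The factors that act on these genes did not share their pattern. Of 11 HIF subunits, partners and regulators none passed for flow, and their median responses were -0.01 in PKHD1-/- and 0.16 in PKHD1+/-. HIF1A, the regulated subunit, read 7.75 under flow and 7.94 in static culture in PKHD1-/-, and 8.16 and 7.68 in PKHD1+/-, so its transcript ran opposite to SLC2A1. EP300, a coactivator of HIF chosen after its values were seen, had responses of -0.74 and 0.49, the lowest and the highest of the 11. VHL had 0.15 and 0.16. Of the 11, 5 were below 0 in PKHD1-/- and above 0 in PKHD1+/- (background 25.7%), and 2 had the reverse signs (background 29%). HIF is regulated largely at the protein, which the arrays do not measure.

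Of 30 other hypoxia targets listed, 28 were tested and none passed for flow. In PKHD1-/- 8 of these had a response of at least 0.5 (background 4.26%) and 1 had one of -0.5 or lower (background 4.5%). In PKHD1+/- 4 had a response of at least 0.5 (background 4.49%) and 5 had one of -0.5 or lower (background 3.52%), and the medians were 0.17 in PKHD1-/- and 0.04 in PKHD1+/-. ANGPTL4, an inhibitor of lipoprotein lipase, was higher under flow in both genotypes, at 9.13 against 7.60 in static culture in PKHD1-/- and at 8.42 against 7.43 in PKHD1+/-. Its flow term of 1.26 ± 0.23 did not pass (limma adjusted p = 0.56). The difference of responses was at least 1 in 6 of the 28 (background 1.11%), which are named after their values were seen. They were ANKRD37 (1.44), FAM162A (1.36), the transferrin receptor TFRC (1.33), the collagen hydroxylase PLOD2 (1.31), the sterol regulator INSIG2 (1.18) and the mTOR inhibitor DDIT4 (1.02). STC1, stanniocalcin 1, was the 1 gene of the 28 at least 1 lower (background 2.4%), at -1.05.

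Of 23 other glycolytic isozymes and flux genes, 21 were tested. ENO3, the muscle enolase, had flow responses of 1.66 in PKHD1-/- and 1.40 in PKHD1+/-, and it read 11.85 and 11.78 with forskolin, against 8.04 and 7.31 in static culture. It was the 1 gene of this list called for forskolin, at 4.14 on the log2 scale. MPC1, a subunit of the mitochondrial pyruvate carrier, had a response of 0.95 in PKHD1-/- and -0.36 in PKHD1+/-, chosen after its values were seen. Among 8 genes of gluconeogenesis none passed for flow, and FBP1, a bisphosphatase of that pathway, had responses of 0.62 and 0.11. G6PC3, a glucose-6-phosphatase found in many tissues and chosen after its values were seen, had responses of -1.32 and 0.81, a difference of -2.13 in the direction of BSG and PKM.

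Other cell types moved between the same arrays. With flow the summed linear level of 18 skeletal muscle markers was 37571 in PKHD1-/- and 22739 in PKHD1+/-, with forskolin it was 102546 and 95614, and in static culture it was 8257 and 2651. It was higher under flow in both genotypes, in 17 of 18 markers (background 21.1%), while most of the hypoxia targets differed in sign between them. The sum of 10 stromal markers was 17755 in PKHD1-/- and 25471 in PKHD1+/- under flow, against 28304 and 20443 in static culture, so that PKHD1+/- flow and PKHD1-/- static were the 2 highest of these 4 arrays, as for BSG and PKM. COL1A1, a collagen of stroma chosen after its values were seen, had responses of -3.47 and 2.04, the lowest and the highest of the 10. The medians of the 10 were -0.48 in PKHD1-/- and 0.13 in PKHD1+/-. Of the 10, 5 were lower under flow in PKHD1-/- and higher in PKHD1+/- (background 25.7%), and 3 were lower in both (background 24.2%). The sum of 12 kidney epithelial markers was 3486 in PKHD1-/- and 3657 in PKHD1+/- under flow, against 2523 and 3764 in static culture. In whole organoids fewer cells of a type and less RNA per cell cannot be told apart, and the part of cell composition in the responses was not tested.

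The difference of responses was positive here for 25 of the 36 genes, against 8825 of all 16364 genes tested. It was positive for 25 of the 36 also with no background correction and in the authors' value table, and for 27 with 75th percentile scaling. The genes were not all the same: ALDOA, ENO1 and SLC16A3 changed sign both with 75th percentile scaling and in the value table, PGK1 in the first and MXI1 in the second, with ALDOA and ENO1 at 0.69 with the scaling, against -0.03 and -0.11 here. The count above 0 in PKHD1-/- and below 0 in PKHD1+/-, 18 here, was 20 with 75th percentile scaling and 14 in the value table. That scaling moved the median flow response of all genes to -0.12 in PKHD1-/- and -0.13 in PKHD1+/- and their median forskolin term to 0.31, and the value table moved the median flow responses to -0.10 in PKHD1-/- and 0.18 in PKHD1+/-. SLC2A1 differed by 2.15 to 2.53 and AK4 by 2.20 to 2.62 over these settings, PKM by -4.54 to -3.82 and BSG by -4.20 to -3.74. The median difference of 0.33 over the 36 genes was 0.69 with 75th percentile scaling and 0.59 in the value table. BNIP3, at 0.99 here, differed by 1.45 with 75th percentile scaling, where its PKHD1+/- response was -0.32. LDHA, at 0.25 here, differed by 1.04 with that scaling and by 0.91 in the value table.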

How the data were processed

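Cy5-coupled antisense RNA made from total RNA of 6 organoid samples was measured on 3D-Gene Human 25k arrays, 1 array a sample, per the labels' protocols. The deposited scanner files give, per the file headers, a median intensity for each spot from which no background was taken. The authors' value table, used as an alternative, holds an intensity per probe with a median of 25 on every array.

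Spot medians were corrected by normexp (offset 50), converted to log2 and quantile normalized (limma 3.58.1, R 4.3.3). Of 24460 probes, 20236 carry 1 gene symbol in the platform annotation and 4224 none. Symbols were updated to GRCh38.p14 RefSeq names, and 147 probes marked as not good were left out. Probes were averaged by gene. A gene was tested when it lay more than 2 SD above the trimmed mean of the blank spots on at least 2 arrays, which kept 16364 of 17446. Limma's moderated test used culture plus genotype over 6 arrays (2 residual degrees of freedom, prior worth 1.54), 2-sided, with Benjamini-Hochberg adjustment and a threshold of 0.05. With 1 array a group, the p-values measure only the variation that these 2 factors do not take up, and the number of arrays limits the precision. The fit was tested on simulated data. The separate term for flow in PKHD1-/- was added after seeing the data, and its SE holds no spread of the flow arrays.

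All members were counted. Those named with full values passed in a term, or had the strongest response of 1 sign in both genotypes, the largest differences between genotypes, or the strongest genotype or forskolin differences of 1 sign, and others follow for their role. The members and lists were chosen with earlier results of these data known.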

Additional observations from a re-analysis of the deposited data

Results flagged for a closer look

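In 9 of the 36 genes the flow arrays moved in opposite directions in the 2 genotypes, with responses at least 1 apart. The response in PKHD1-/- minus that in PKHD1+/- was 2.20 for AK4, 2.15 for SLC2A1, 1.69 for KDM3A, 1.67 for NDRG1, 1.39 for ADM, 1.39 for ALDOC and 1.26 for P4HA1. It was -4.07 for BSG and -3.98 for PKM. Each is the difference of 2 single-array differences and was not tested as such. The nearest test, the separate term for flow in PKHD1-/-, gave a limma adjusted p of 0.485 for each of the 9.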

How the results depend on the processing

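The median difference of flow responses over the 36 genes was 0.33, and it was 0.69 with 75th percentile scaling and 0.59 in the authors' value table. The count of genes called for forskolin was 169, and it was 6833 with 75th percentile scaling, 962 in the value table, 1177 with trended and robust variances, 41 with no filter on dim genes and 0 without any 1 array. The count for flow was 0, and it was 79 in the value table and 1 with trended and robust variances. Leaving out each array in turn, with the lone sample of a culture assumed to vary like the rest, gave a median flow term from -0.23 to 0.23, a median genotype term from -0.019 to 0.22 and a median forskolin term from 0.057 to 0.63. Flow terms of single genes were followed over these fits only for members picked by the naming rule above. Others of the 36, such as ADM and ALDOC, were not followed. Of the genes followed, the flow terms of 12 changed sign. They ran from -1.76 to 1.46 for BSG, -1.91 to 1.36 for PKM, -1.10 to 1.26 for AK4 and -1.43 to 0.81 for SLC2A1. The range was -0.45 to 1.03 for KDM3A, -0.15 to 1.39 for NDRG1, -0.73 to 0.45 for P4HA1 and -1.06 to 0.0013 for LDHA. For GPI it was -0.25 to 0.021, for EGLN3 -0.42 to 0.20, for CA9 -0.041 to 0.26 and for BNIP3L -0.34 to 0.067. With 1 flow array left out, the flow term rests on the flow array of 1 genotype. The causes of the moves in counts were not tested. Culture plus genotype already pairs the cultures within a genotype. No further paired analysis by replicate number was possible, since the labels give none. The dim forskolin arrays limit what low genes can show.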
